A study of Mus musculus with 7 samples.

Results

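The 10 genes followed here are ones that newly formed neurons switch on, measured in embryos with a disrupted Adnp gene: Elavl3, Elavl4, Nefl, Hes6, Neurod1, Fez1, Sst, Tubb3, Dcx and Stmn2. They were taken by name, as the probe sets (groups of short array probes read as 1 brightness value) that the platform annotation gives to 1 of these symbols only. All 10 had such a probe set, 20 in all, among 12393 genes on the array. Knockout embryos (Adnp -/-) were measured on 2 arrays, heterozygous littermates (Adnp +/-) on 3 and wild-type littermates (Adnp +/+) on 2. Every array carried RNA pooled from 2 embryos of the same genotype, so the replicate is the pool. Which pools share litters is not stated. All were whole C57BL/6 embryos on embryonic day 9, freed of yolk sac and amnion and genotyped from yolk sac DNA. The study asked which genes lie downstream of ADNP, a homeodomain and zinc-finger protein needed for brain formation and for development past mid-gestation.

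On this day of mouse development the neural tube is closing and the earliest neurons are leaving the cell cycle. Proneural basic helix-loop-helix factors such as the neurogenins commit a progenitor to become a neuron and raise Notch ligands on its surface, while Notch signalling keeps neighbouring cells as progenitors through Hes repressors. Committed cells then turn on later factors such as Neurod1, RNA-binding proteins of the Elavl family, and a neuronal cytoskeleton of Tubb3, Dcx, Stmn2 and neurofilaments. Neurons are a minor part of the whole embryo at this stage, and on bulk RNA fewer neurons and less RNA per neuron cannot be told apart.

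Proneural factors bind the E-box, CANNTG, and prefer its forms CAGATG and CAGCTG. Promoters of Elavl3, Elavl4 and Hes6, each with a CAGCTG, and of Sst are shown as examples from the genes that were lower in both comparisons of the knockout. Fez1, lower in both as well, also has a CAGCTG, in 1 of its 3 windows, and is not shown. Elavl4 has 4 windows, of which the second is shown and the first holds no E-box; Hes6 has 2, of which the first is shown. The windows come from RefSeq on GRCm38.p6 and run from 250 bases before to 50 bases after an annotated start site, on the strand of the gene. Capitals mark every E-box in Elavl3 (chr9:22051974-22052273, minus strand), Elavl4 (chr4:110287478-110287777, minus strand) and Hes6 (chr1:91413989-91414288, minus strand). In Sst (chr16:23890795-23891094, minus strand) capitals mark the cyclic AMP response element TGACGTCA, for which this promoter is known.
Elavl3: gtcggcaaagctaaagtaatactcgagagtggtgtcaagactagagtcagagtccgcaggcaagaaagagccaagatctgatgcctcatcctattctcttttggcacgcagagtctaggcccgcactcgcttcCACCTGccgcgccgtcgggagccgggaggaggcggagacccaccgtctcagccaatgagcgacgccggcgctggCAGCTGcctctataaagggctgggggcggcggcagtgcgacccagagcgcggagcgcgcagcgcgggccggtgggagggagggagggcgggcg
Elavl4: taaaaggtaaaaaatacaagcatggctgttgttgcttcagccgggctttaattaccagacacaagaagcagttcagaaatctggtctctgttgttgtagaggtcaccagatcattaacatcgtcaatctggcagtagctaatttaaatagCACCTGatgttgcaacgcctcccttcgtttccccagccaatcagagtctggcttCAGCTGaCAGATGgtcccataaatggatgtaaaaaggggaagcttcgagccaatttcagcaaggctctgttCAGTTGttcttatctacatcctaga
Hes6: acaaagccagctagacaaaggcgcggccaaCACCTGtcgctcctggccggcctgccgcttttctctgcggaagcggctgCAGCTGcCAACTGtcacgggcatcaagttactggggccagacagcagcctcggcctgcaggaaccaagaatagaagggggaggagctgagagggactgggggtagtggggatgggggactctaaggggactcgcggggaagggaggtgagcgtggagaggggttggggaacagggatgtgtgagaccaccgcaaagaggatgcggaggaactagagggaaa
Sst: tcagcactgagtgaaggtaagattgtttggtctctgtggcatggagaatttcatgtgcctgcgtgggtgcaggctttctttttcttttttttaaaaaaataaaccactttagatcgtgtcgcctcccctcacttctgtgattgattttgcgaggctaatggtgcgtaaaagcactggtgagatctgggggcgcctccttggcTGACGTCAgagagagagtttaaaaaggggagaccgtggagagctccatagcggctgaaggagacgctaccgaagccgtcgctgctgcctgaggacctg

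Windows were available for 8 of the 10 genes, 15 windows in all because of alternative start sites, some of which overlap. Letters were searched on both strands. An E-box stood in 10 of the 15 windows, in 6 of the 8 genes, a smaller share of windows than the 72.3% of all 32851 windows of the table. Either of the 2 preferred forms named above stood in 8 of the 15 windows and in 4 genes, Elavl3, Elavl4, Hes6 and Fez1, against 30.6% of all windows. The CAGCTG began at position -43 in Elavl3 and -46 in Elavl4, counted from the start site, and at -171 in Hes6. For the site of REST, a repressor of neuronal genes outside neurons, the left part TTCAGCACC was in 0 of the 15 windows (0.371% of all windows) and the right part GGACAG in 1, that of Tubb3 (22.2% of all windows). TGACGTCA was in the Sst window only among the 15, at -48 (1.79% of all windows). These matches describe the letters in the windows and were not tested.

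The 7 arrays were alike in brightness, with median signals of 55.5 to 57.4, and their number limits the precision of every value. The probe set that names Adnp names the gene Dpm1 too and read 1880.2 and 1681.5 in knockout, against 897.2 and 1025.6 in wild-type pools, so loss of Adnp RNA could not be checked and the genotypes rest on the labels. The labels call all pools mixed in sex, but both wild-type pools had Y-linked Kdm5d near the floor (10.0 and 4.3). It read 55.3 and 102.9 in knockout and 46.7, 90.3 and 50.1 in heterozygous pools. Xist, made from the inactive X of female cells, read 510.3 and 58.8 in knockout, 595.0, 62.0 and 548.2 in heterozygous, and 801.0 and 844.4 in wild-type pools, so knockout replicate 2 and heterozygous replicate 2 stood apart within their groups. Genotype and sex therefore cannot be told apart between knockout and wild-type pools. The heterozygous pools all had Y-linked signal, as the knockout pools did. Differences are given as log2(signal + 3.8), where 3.8 is the 10th percentile of all values, so that those of dim genes are understated.

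Most of the early neuron genes were lower in knockout embryos. Elavl3, Elavl4, Nefl, Hes6, Fez1 and Sst fell against wild type and heterozygotes alike, with log2 differences between -2.63 and -1.10. Neurod1 fell against heterozygotes and did not pass against wild type. Tubb3 pointed the same way without passing the test, and Stmn2 was near the level of the other genotypes. Dcx was too dim for the main test. None of the tested genes passed between heterozygous and wild-type embryos.

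In counts, 9 of the 10 genes passed the filter on dim probe sets and were tested with limma, with Benjamini-Hochberg adjustment over all 7852 genes tested and a threshold of 0.05. The filter used the mean over all 7 arrays. Elavl3, Neurod1 and Sst were under its level in both knockout pools, and Elavl4 was in knockout replicate 1. These genes passed it through their heterozygous and wild-type pools. Against wild type 6 of the 9 were lower, 0 higher and 3 did not pass, where 1.4% of all genes tested were called lower and 2% higher (3.4% in either direction). Against heterozygotes 7 of the 9 were lower, 0 higher and 2 did not pass, where 2.92% of all genes were called lower and 3.26% higher (6.18% in either direction). Called lower in both were 6 of 9, against 1.17% of all genes. Both knockout pools were below all 5 others for 8 of the 9 genes and above them for 0, against 16.7% and 14.3% of all genes. The median difference of the 9 genes was -1.37 from wild type and -1.38 from heterozygotes, while the medians over all genes were -0.02 and -0.03. The 2 comparisons share the knockout arrays. With no filter 2 of the 10 genes were called against wild type, where 161 of all 12393 genes were called in either direction. The genes were chosen with earlier results of these data known, so the shares describe them and do not test the list.

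**Figure D1:**
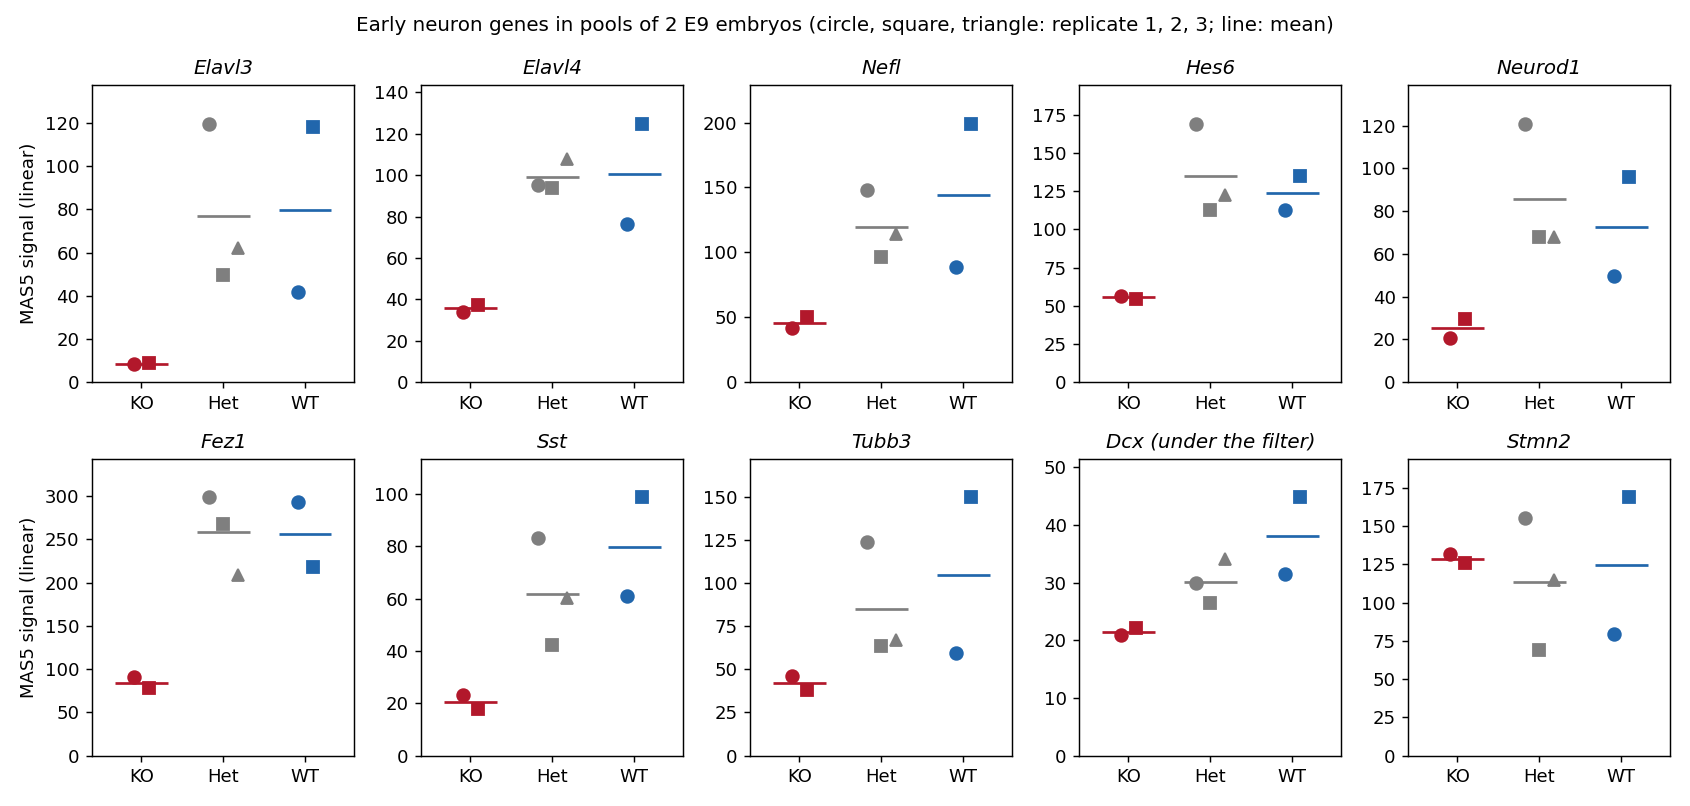
MAS5 signal (linear, axis from 0) of the brightest probe set of each gene in each pool of 2 embryos, knockout (KO) left, heterozygous (Het) middle, wild type (WT) right; symbols are replicates and lines are means. Both knockout pools lie below all 5 other pools for every gene but Stmn2, and the other pools spread widely, for Elavl3 between 41.6 and 119.8.

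Elavl3 and Elavl4 encode neuronal relatives of the Drosophila ELAV protein that bind AU-rich RNA, stabilise messages and steer splicing in new neurons. Elavl3 read 8.3 and 8.6 in knockout pools, 119.8, 49.4 and 62.2 in heterozygous pools, and 41.6 and 118.2 in wild-type pools. Both knockout pools were within a few units of the pseudocount, and the other 5 pools, although up to 2.84-fold apart within wild type, did not overlap with them. The log2 difference was -2.60 from wild type (SE 0.48, limma, adjusted p = 0.0173) and -2.63 from heterozygotes (SE 0.44, adjusted p = 0.00836), the largest of the 9 genes in both comparisons. Elavl4 read 34.0 and 37.2 in knockout, 95.0, 94.0 and 107.9 in heterozygous, and 76.5 and 124.9 in wild-type pools. Its heterozygous pools were close together, and its knockout pools did not overlap with the others. It fell, with log2 differences of -1.37 from wild type (SE 0.24, limma, adjusted p = 0.0134) and -1.38 from heterozygotes (SE 0.21, adjusted p = 0.00642).

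Among the transcriptional regulators, Neurod1 is a basic helix-loop-helix factor that drives terminal differentiation of neurons, and Hes6 is a Hes relative that promotes neuronal differentiation by opposing Hes1. Hes6 read 56.6 and 54.5 in knockout, 169.3, 112.5 and 122.7 in heterozygous, and 112.6 and 135.1 in wild-type pools. Its knockout pools lay close to each other and below all others. It fell, with log2 differences of -1.10 from wild type (SE 0.21, limma, adjusted p = 0.021) and -1.20 from heterozygotes (SE 0.19, adjusted p = 0.00689). Neurod1 read 20.6 and 29.7 in knockout, 121.0, 67.8 and 67.9 in heterozygous, and 49.6 and 95.9 in wild-type pools. The knockout pools did not overlap with the others, yet the wild-type pools were 1.93-fold apart. Neurod1 fell by 1.59 against heterozygotes (SE 0.33, limma, adjusted p = 0.0214). The difference from wild type, -1.35 (SE 0.36, adjusted p = 0.0701), missed the threshold. It passed once wild-type replicate 1 (adjusted p = 0.0387) or heterozygous replicate 1 (0.038) was left out, and was -0.90 without wild-type replicate 2 (0.438) and -1.12 without knockout replicate 1 (0.312).

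The cytoskeletal genes did not all behave alike. Nefl, the light neurofilament subunit of axons, read 41.3 and 49.9 in knockout, 147.7, 96.2 and 114.3 in heterozygous, and 88.6 and 199.2 in wild-type pools. Both knockout pools were below all others, among which the wild-type pools were the lowest and the highest. Nefl fell, with log2 differences of -1.48 from wild type (SE 0.33, limma, adjusted p = 0.0387) and -1.30 from heterozygotes (SE 0.30, adjusted p = 0.0342). Tubb3, the beta-tubulin class typical of neurons, read 46.1 and 38.3 in knockout, 123.6, 63.7 and 67.2 in heterozygous, and 59.3 and 149.5 in wild-type pools. Both knockout pools were the lowest of the 7, but the wild-type pools were 2.52-fold apart. The differences of -1.10 from wild type (SE 0.41, limma, adjusted p = 0.176) and -0.89 from heterozygotes (SE 0.37, adjusted p = 0.187) did not pass; that from wild type was -0.46 without wild-type replicate 2 and passed without wild-type replicate 1 (-1.74, adjusted p = 0.0392).

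Stmn2, a stathmin that destabilises microtubules in growth cones, stood apart from the other genes. It read 131.6 and 125.7 in knockout, 155.5, 69.3 and 114.7 in heterozygous, and 79.8 and 168.7 in wild-type pools. The knockout pools lay inside the range of the others. Its difference was 0.14 from wild type (95% interval -0.68 to 0.97, limma, adjusted p = 0.886) and 0.25 from heterozygotes (-0.50 to 1.00, adjusted p = 0.711), and the first turned to -0.38 without wild-type replicate 1. These intervals leave out falls as large as the fitted values of Elavl3, Elavl4, Nefl, Hes6, Fez1 and Sst. Dcx, the X-linked doublecortin that binds microtubules in migrating neurons, was at the 35.1th percentile of brightness, under the filter at the 40th. Its brightest probe set read 20.9 and 22.1 in knockout, 30.0, 26.5 and 34.1 in heterozygous, and 31.5 and 44.8 in wild-type pools. In a fit of all 20380 probe sets without a filter its difference from wild type was -0.71 (SE 0.31, limma, adjusted p = 0.349) and that from heterozygotes -0.42 (adjusted p = 0.516), and neither passed.

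Fez1, an adaptor that links cargo to kinesin motors in axons, kept its call under every alternative run in both comparisons with the knockout. Against wild type the weakest of these calls was only just under the threshold. It read 91.0 and 78.0 in knockout, 298.3, 267.9 and 208.3 in heterozygous, and 292.9 and 218.3 in wild-type pools. It was the gene whose wild-type pools differed the other way, with replicate 1 above replicate 2. It fell, with log2 differences of -1.54 from wild type (SE 0.20, limma, adjusted p = 0.00355) and -1.56 from heterozygotes (SE 0.18, adjusted p = 0.00136), the smallest adjusted p of the 9 genes in both. Sst, the precursor of the neuropeptide somatostatin, read 23.0 and 17.8 in knockout, 83.0, 42.2 and 60.3 in heterozygous, and 61.1 and 98.6 in wild-type pools. Its knockout pools were the lowest, while heterozygous and wild-type pools overlapped. Sst fell, with log2 differences of -1.76 from wild type (SE 0.33, limma, adjusted p = 0.0198) and -1.40 from heterozygotes (SE 0.30, adjusted p = 0.0265).

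Many of these calls were lost when a single array was left out. Against wild type the count of 6 became 1, that of Fez1, without wild-type replicate 2, knockout replicate 1 or knockout replicate 2, and 8 without wild-type replicate 1. Elavl3, Elavl4, Nefl, Hes6 and Sst lost their calls without any of those first 3 arrays (adjusted p 0.0828 to 0.258), and Nefl also without heterozygous replicate 3 (0.0727). Without wild-type replicate 2 the difference of Nefl was -0.91. Against heterozygotes the count of 7 became 1, again Fez1, without either knockout array (adjusted p of the lost calls 0.0585 to 0.204), and Nefl and Sst also lost theirs without heterozygous replicate 1 or 3 (0.0617 to 0.0839). Counts over all genes moved likewise: 267 genes were called against wild type with all arrays, 58 without wild-type replicate 2, 73 without knockout replicate 1 and 50 without knockout replicate 2. The median difference of the 9 genes from wild type lay between -1.74 and -0.97 with 1 array left out. These ends were without wild-type replicate 1 and 2. Without knockout replicate 1 or 2 it was -1.31 or -1.44, close to the -1.37 with all arrays, while the knockout kept 1 array.

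**Figure D2:**
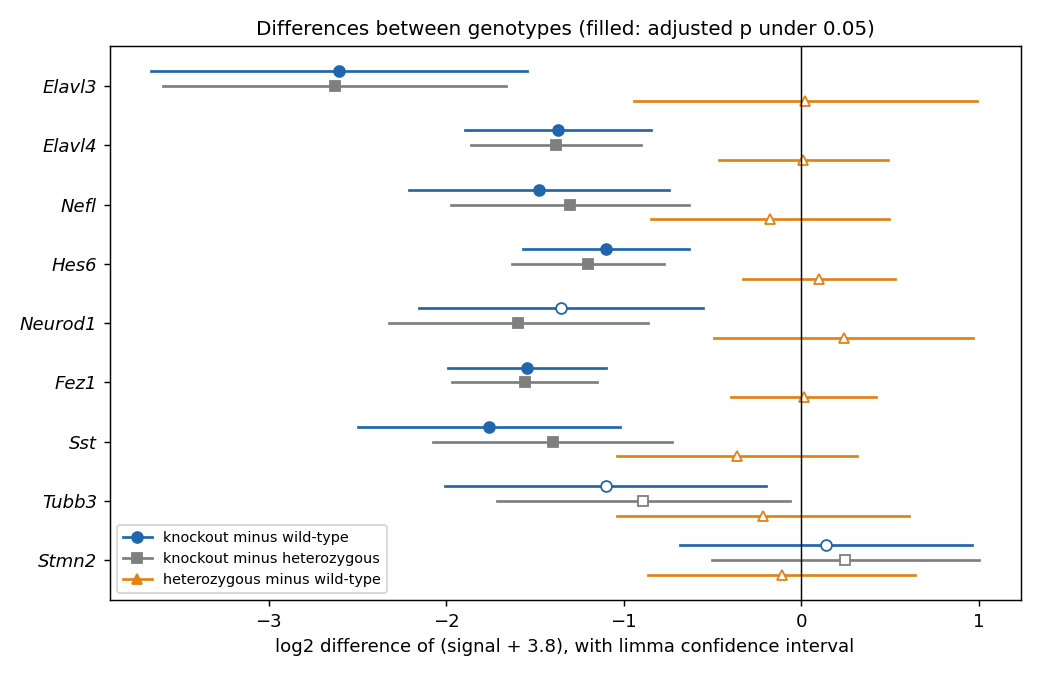
Log2 differences of the 9 tested genes with 95% intervals from the limma fit over 7 arrays: knockout minus wild type (blue circles), knockout minus heterozygous (grey squares) and heterozygous minus wild type (orange triangles); filled symbols have an adjusted p under 0.05. The knockout differences lie left of 0 for all genes but Stmn2, and all heterozygous intervals span 0.

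Heterozygous and wild-type embryos did not differ detectably. Of the 9 genes 0 passed in limma, and 0 had an unadjusted p under 0.05; over all genes 0 of 7852 (0%) passed and 279 (3.55%) had an unadjusted p under 0.05. The differences ran from -0.36 for Sst to 0.24 for Neurod1, with 4 of 9 negative. Precision varied: the 95% interval was -0.39 to 0.42 for Fez1 and -0.94 to 0.99 for Elavl3. The order of the 3 genotypes was thus knockout below both others for 8 of the 9 tested genes, with overlapping heterozygous and wild-type pools.

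Most other probe sets of these genes gave the direction of the brightest one. Both knockout pools lay below all 5 other pools in 15 of the 20 probe sets, against 12.5% of all 20380 probe sets. The 3 probe sets of Elavl4 differed from wild type by -1.37, -1.22 and -1.28, the 2 of Hes6 by -1.10 and -0.67, and the 2 of Neurod1 by -1.35 and -1.79. From heterozygotes, in the same order, those of Elavl4 differed by -1.38, -0.94 and -1.38, those of Hes6 by -1.20 and -0.76, and those of Neurod1 by -1.59 and -1.83. The other 2 probe sets of Elavl3 were dim, at the 21.0th and 18.4th percentile of brightness, and their knockout pools overlapped with the others (-0.89, 95% interval -2.65 to 0.87, and -0.40, -2.05 to 1.25, from wild type; -0.84 and -1.91 from heterozygotes). The 4 probe sets of Dcx ran from -1.85 to 0.29 against wild type and from -2.05 to 0.02 against heterozygotes. The second probe set of Stmn2 read 204.6 and 144.9 in knockout, 87.8, 61.0 and 70.5 in heterozygous, and 66.7 and 133.7 in wild-type pools. Both its knockout pools were above all others, though its differences of 0.84 from wild type (SE 0.32, limma, adjusted p = 0.286) and 1.21 from heterozygotes (SE 0.30, adjusted p = 0.0927) did not pass. In this fit without a filter 1 of the 20 probe sets was called lower than wild type, that of Fez1 (adjusted p = 0.024), against 0.226% of all probe sets (0.697% in either direction). Against heterozygotes 4 were called lower, the brightest ones of Elavl3, Elavl4, Hes6 and Fez1, against 0.618% (1.44% in either direction).

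**Figure D3:**
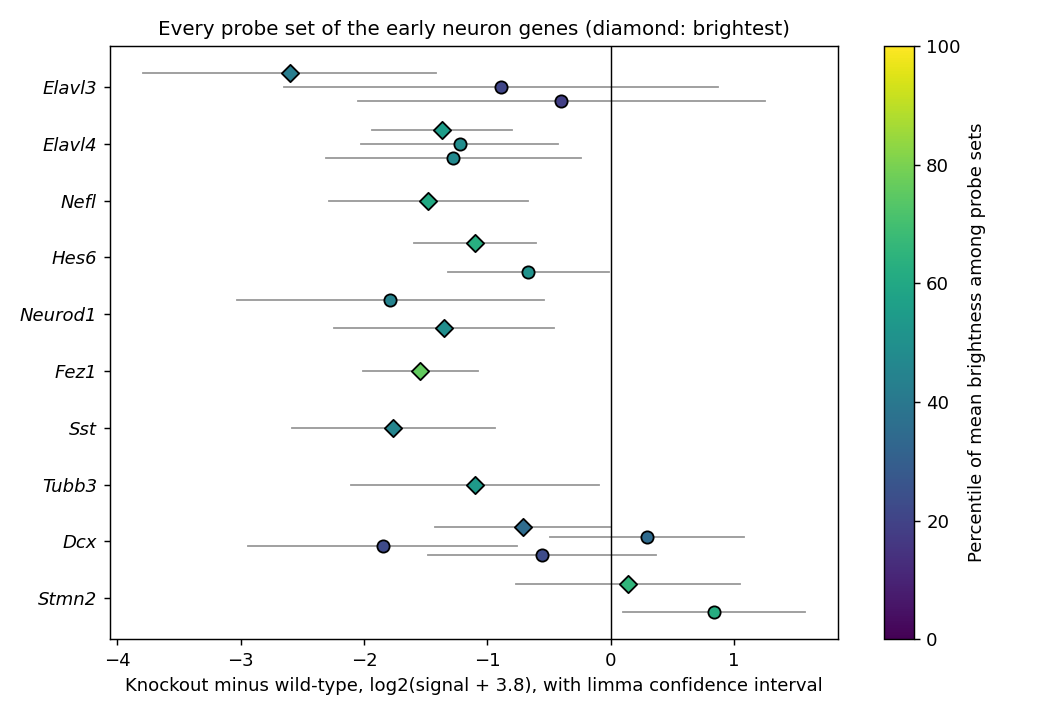
Knockout minus wild type on the log2(signal + 3.8) scale, with 95% interval, for each of the 20 probe sets; colour is the percentile of mean brightness and diamonds are the brightest probe set of a gene. Probe sets of Elavl3, Elavl4, Hes6 and Neurod1 lie left of 0, but the intervals of the dim ones of Elavl3 span 0. Those of Dcx lie on both sides of 0 and those of Stmn2 right of it.

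The pools of control genotypes varied among themselves in the same genes. Averaged over all 10 genes, the mean log2 level was 5.35 and 5.36 in knockout pools, 6.93, 6.28 and 6.49 in heterozygous pools, and 6.27 and 7.01 in wild-type pools. Wild-type replicate 1 was the lowest of the 5 control pools in 5 of the 9 tested genes, Elavl3, Elavl4, Nefl, Neurod1 and Tubb3, against 17.2% of all genes tested. Wild-type replicate 2 and heterozygous replicate 1 were the 2 highest pools for Elavl3, Nefl, Hes6, Neurod1, Sst, Tubb3 and Stmn2. These 2 pools are of different genotypes.

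A list of 20 visceral endoderm markers, the layer that surrounds the early embryo, ran the opposite way. All 20 were found, Apoa4 under the filter, and 0 were at 0 throughout. Of the 20, 19 were higher in both knockout pools than in all 5 others (14.3% of all genes tested), the exception being Gata6. Their summed signal was 12593 and 14954 in knockout, 1332, 2567 and 1653 in heterozygous, and 3784 and 1252 in wild-type pools. Their mean log2 level was 8.66 and 8.83 in knockout, 5.35, 6.53 and 5.98 in heterozygous, and 7.03 and 5.40 in wild-type pools. Among the 5 control pools, wild-type replicate 1, heterozygous replicate 2 and heterozygous replicate 3, in that order, were highest in these markers and lowest in the early neuron genes. Apoa1, an apolipoprotein, read 1395.7 and 1706.1 in knockout, 11.8, 73.8 and 65.3 in heterozygous, and 142.7 and 14.2 in wild-type pools. The part of this in the falls of the neuron genes was not tested.

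**Figure D4:**
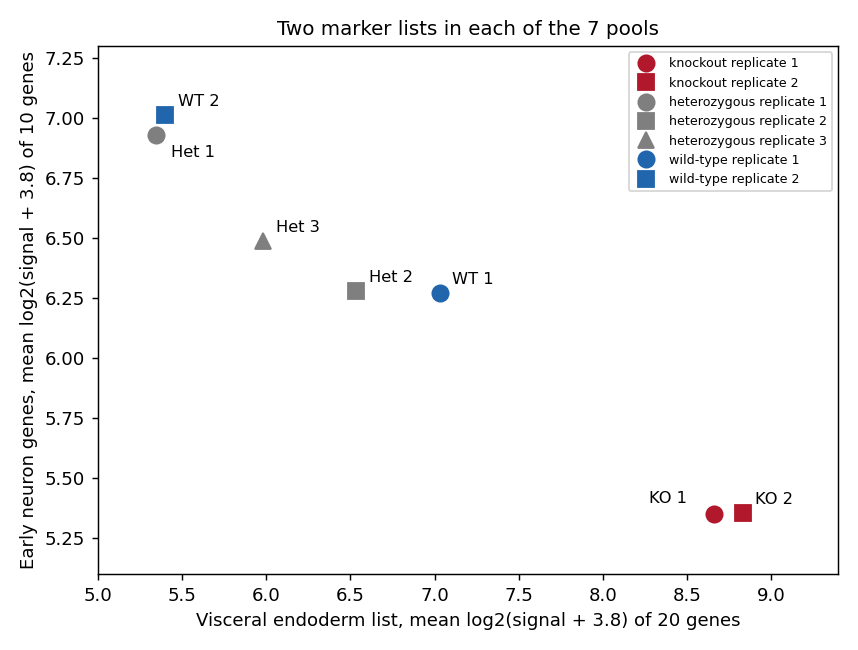
Mean log2(signal + 3.8) of the 20 visceral endoderm markers (horizontal axis) and of the 10 early neuron genes (vertical axis) in each pool, coloured by genotype. The knockout pools stand at 8.66 and 8.83 on the horizontal and 5.35 and 5.36 on the vertical axis, and control pools of both genotypes run from upper left to lower right.

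Markers of other embryonic tissues are given as counts, beside 16.7% of all tested genes with both knockout pools below all others and 14.3% with both above. Both knockout pools were below all others for 6 of 10 somite and paraxial mesoderm markers and 4 of 10 heart markers, and below for 2 and above for 0 of 9 neural crest markers. For 10 endothelial markers the same counts were 2 and 0. Of 8 primitive erythroid markers 1 was below and 1 above. Markers under the filter are counted too, and 5 of the 10 somite and paraxial mesoderm markers passed it. Without a filter 12.5% of all probe sets had both knockout pools below all others. The neural crest, endothelial and erythroid counts are near those shares. Their part in the differences of the neuron genes was not tested.

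Some genes that act before neurons form were lower as well, though RNA of whole embryos does not show in which tissue they fell. The list of neural progenitor genes had 20 tested members, of which 7 were lower than wild type, 0 higher and 13 not past the threshold (median -0.53), where 1.4% of all genes were called lower. Fabp7, which binds fatty acids in radial glia, read 33.1 and 43.1 in knockout, 197.5, 143.3 and 145.3 in heterozygous, and 134.0 and 300.6 in wild-type pools, with differences of -2.30 from wild type (SE 0.32, limma, adjusted p = 0.00529) and -1.98 from heterozygotes (SE 0.29, 0.00531). Sox2, a factor that keeps neural progenitors undifferentiated, differed by -0.79 from wild type (SE 0.12, adjusted p = 0.00632) and -0.74 from heterozygotes (0.00455), and its relative Sox3 by -0.80 (SE 0.16, 0.027) and -0.69 (0.0277). The others called were Lhx2 (-1.07), Zic1 (-0.98), Nes, the progenitor intermediate filament nestin (-0.72), and Vim (-0.71). Against heterozygotes 7 were lower as well (median -0.27), where 2.92% of all genes were, with the RNA-binding protein Msi1 (-1.25, adjusted p = 0.0355) in place of Vim. Olig2 (-1.15, adjusted p = 0.236), Gbx2 (0.59, 0.287) and Hes3 (0.57, 0.362) did not pass against wild type. Against wild type 1 call was left when wild-type replicate 2 or knockout replicate 2 was dropped, that of Fabp7, and 1 when knockout replicate 1 was, that of Sox2. Lhx2 also lost its call to the omission of wild-type replicate 1, Sox3 and Vim to that of heterozygous replicate 3, and Vim to that of heterozygous replicate 2. Against heterozygotes 1 call was left with either knockout array dropped, and Sox3, Msi1 and Lhx2 also lost theirs with some single control arrays dropped.

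Of 20 tested genes of the Notch pathway, 4 were lower than wild type, 0 higher and 16 not past the threshold, where 1.4% of all genes were called lower (median -0.24, but -0.09 without wild-type replicate 2). They were Mfng (-1.29, SE 0.22, limma, adjusted p = 0.0136) and Lfng (-0.92, SE 0.22, 0.0495), glycosyltransferases that modify Notch receptors, and the Notch target genes Hes5 (-1.05, SE 0.21, 0.0253) and Nrarp (-0.99, SE 0.17, 0.0126). Hes5 read 61.9 and 90.3 in knockout, 199.6, 144.4 and 150.4 in heterozygous, and 154.8 and 164.2 in wild-type pools. Against heterozygotes Mfng (-1.09), Lfng (-0.98), Hes5 (-1.09), Nrarp (-1.03) and Hey1 (-0.67, adjusted p = 0.0432) were lower, 5 in all, where 2.92% of all genes were. Hes1, the Hes repressor common to many tissues (0.43, adjusted p = 0.281), Jag2 (0.45, 0.258) and Heyl (-0.55, 0.312) did not pass against wild type. The count against wild type was 0 when wild-type replicate 2 or knockout replicate 1 was dropped, and 1, that of Hes5, when knockout replicate 2 was. Hes5 also lost its call with wild-type replicate 1 dropped, and Lfng with heterozygous replicate 2 or 3. Dropping knockout replicate 1 left 0 calls against heterozygotes, dropping knockout replicate 2 left 1 and dropping heterozygous replicate 3 left 3, without Hey1 and Mfng.

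The list of proneural and neuron-determination factors also held Id1, Id2 and Id3, inhibitors of basic helix-loop-helix factors, which its counts and medians include. They differed by 0.09, 0.43 and 0.05 from wild type and by -0.23, 0.50 and 0.10 from heterozygotes. Of the 12 tested genes of this list, 1 was lower than wild type, 0 higher and 11 not past the threshold, where 1.4% of all genes were called lower. The median was -0.23, but -0.06 without wild-type replicate 2 and -0.49 without wild-type replicate 1. It was Tcf3, the E protein that pairs with proneural factors (-0.49, SE 0.11, limma, adjusted p = 0.0425), and its call was lost in 10 of 16 alternatives (adjusted p 0.0514 to 0.291), with every array left out but heterozygous replicate 1 among them. Against heterozygotes Tcf3 (-0.49, adjusted p = 0.0216) and Ebf3 (-0.79, 0.0471) were lower, and Id2, an inhibitor of basic helix-loop-helix factors, was higher (0.50, 0.0401), where 2.92% of all genes were lower and 3.26% higher. Dropping either knockout array left 0 of these 3 calls, and dropping either wild-type array, heterozygous replicate 1 or heterozygous replicate 3 left 1, that of Tcf3. Insm1, a zinc-finger factor of cells about to become neurons, read 12.1 and 23.8 in knockout, 82.5, 29.0 and 51.0 in heterozygous, and 42.0 and 91.6 in wild-type pools, and did not pass against wild type (-1.66, SE 0.48, adjusted p = 0.0925) or heterozygotes (-1.36, 0.0945). Nor did Ebf2 (-0.88, 0.106) or Neurod2 (0.90, 0.0986) against wild type.

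Of 24 tested genes of the neuronal cytoskeleton and axon growth, 0 passed against wild type in limma, with 7 at an unadjusted p under 0.05, against 19.2% of all genes (median -0.11, but 0.05 without wild-type replicate 2, 0.02 without knockout replicate 2 and -0.26 without knockout replicate 1). Nefm, the medium neurofilament, read 38.7 and 43.3 in knockout, 153.6, 58.8 and 62.5 in heterozygous, and 58.2 and 178.0 in wild-type pools, and did not pass against wild type (-1.25, SE 0.51, adjusted p = 0.217) or heterozygotes (-0.96, 0.253). Dpysl4 (-0.81, adjusted p = 0.0838) and Ncam1 (-0.57, 0.143) did not pass either. Against heterozygotes Tubb2b, a beta-tubulin, was lower (-0.53, adjusted p = 0.0425), while the semaphorin receptor gene Nrp2 (0.79, 0.0142) and the growth cone gene Gap43 (0.53, 0.0448) were higher. That is 1 lower and 2 higher of 24, where 2.92% of all genes were called lower and 3.26% higher. Of these 3 calls 0 were left with either knockout array dropped and 1, that of Nrp2, with heterozygous replicate 1 or 3 dropped. Gap43 lost its call whichever array was dropped, and Tubb2b with any heterozygous array dropped.

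Of 11 tested synaptic and neurotransmitter genes 0 passed against either genotype in limma, with 2 at an unadjusted p under 0.05 against wild type and 3 against heterozygotes, where 19.2% and 23% of all genes had one. The median against wild type was -0.30, but -0.12 without wild-type replicate 2 and 0.0011 without knockout replicate 1. Nsg1 (-0.82, adjusted p = 0.121), Gria2 (-0.70, 0.287) and Uchl1 (-0.48, 0.213) had the largest differences from wild type. Of 9 tested neuron subtype transcription factors 0 passed as well, with 1 at an unadjusted p under 0.05 in each comparison with the knockout (median 0.11 against wild type, but -0.20 with wild-type replicate 1 dropped and -0.08 with knockout replicate 1 dropped). En1, a homeobox gene of midbrain and hindbrain, read 85.3 and 47.9 in knockout, 39.1, 34.3 and 28.8 in heterozygous, and 29.4 and 25.4 in wild-type pools (1.12, SE 0.30, limma, adjusted p = 0.0735), and Lhx5 (0.33, 0.659) and Lhx3 (0.20, 0.846) were the next. Between heterozygous and wild-type embryos 0 genes of any of the 6 lists passed.

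**Figure D5:**
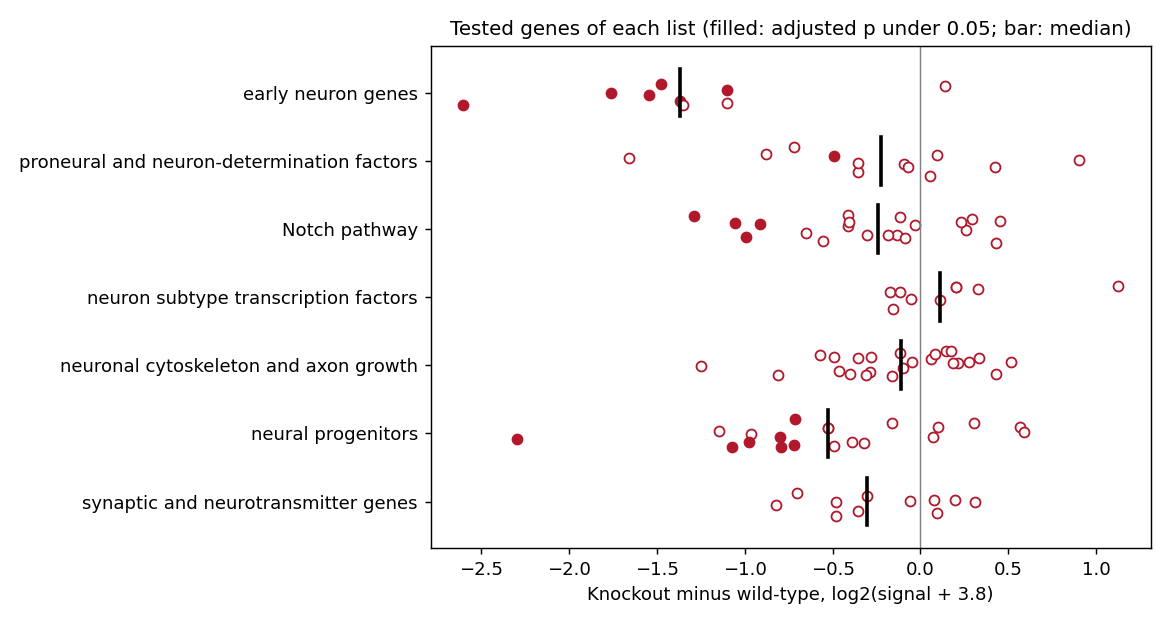
Knockout minus wild type on the log2(signal + 3.8) scale for the tested genes of the early neuron set and of 6 related lists; filled points have an adjusted p under 0.05 and black bars are medians. The early neuron genes have a median of -1.37, neural progenitors one of -0.53 and neuron subtype factors one of 0.11.

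Across the 7 arrays the tested early neuron genes followed each other closely with 2 exceptions. Pearson's r of a gene with the mean standardised profile of the other 8 was 0.993 for Elavl3, 0.980 for Nefl and 0.965 for Sst, but 0.779 for Fez1 and 0.132 for Stmn2. The other genes lay between 0.911 and 0.957. Outside the set, the 8 genes most like its mean profile had r from 0.987 to 0.995: Nnat (neuronatin), Vegfb, Asb4, Purg, Ndrg4, Ppdpf, Gemin7 and Tagln3. Nnat read 815.9 and 767.5 in knockout, 1784.7, 1269.0 and 1430.9 in heterozygous, and 1313.0 and 1834.5 in wild-type pools. Tagln3 read 29.7 and 38.9 in knockout, 110.7, 63.9 and 73.3 in heterozygous, and 64.8 and 111.1 in wild-type pools. In both, heterozygous replicate 1 and wild-type replicate 2 were the highest pools, as in the mean profile by which these genes were picked. These values describe 7 points that share arrays and scaling, and a large part of each is the gap between knockout and control pools.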

How the data were processed

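RNA of 7 pools of 2 embryos was read on Affymetrix 430A mouse arrays. The deposited values are intensities, 1 MAS5 signal per probe set and array on a linear scale, which the authors computed in MAS5 (per the submitters' processing notes). Not given in the sources used here were its version, scaling target or any present and absent calls. A mean trimmed by 2% at each end was 150.1 on every array, so changes are relative to the whole array. Of 22690 probe sets 64 were controls, 20380 had 1 symbol in the platform annotation, 691 several and 1555 were not listed.

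Signals were taken as log2(signal + 3.8), the pseudocount being the 10th percentile. A gene was its brightest probe set by mean log2, and a gene was tested if that probe set reached the 40th percentile (signal plus pseudocount of 40.8), as 7852 did. One limma 3.58.1 fit (R 4.3.3; lmFit, eBayes with trend) over all 7 arrays had genotype as its only term, with 4 residual and 6.23 prior degrees of freedom. Tests were two-sided, with Benjamini-Hochberg adjustment over all genes tested. The code of the fit was checked on simulated data with independent normal noise and added changes. Those data lack the variation that genes share between pools, so they do not test the p-values given here. Groups and replicate numbers came from the titles. The labels do not say which pools share litters, so p-values measure the spread between pools.

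Members, gene lists and motifs were chosen with earlier results of these data known; TGACGTCA was added after the promoters were read. Named were all members, from each list every gene past the threshold against wild type or heterozygotes and up to 3 more of the largest differences, and the 8 genes most like the members. Alternatives were pseudocount, filter, quantile normalization, trend, arrays in the fit, replicate block, averaging probe sets and leaving out each array.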

Additional observations from a re-analysis of the deposited data

How the results depend on the processing

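Under 9 alternative settings and with each array left out, the count of early neuron genes called held within 1.5 times its value except as follows. Against wild type it was 6, against 2 with no filter (10 genes tested), 3 with a filter at the 60th percentile (4 genes tested) and 1 with the replicate block; against heterozygotes it was 7, against 4, 3 and 1 in the same settings. With 1 array left out the counts ran from 1 to 8 against wild type and from 1 to 7 against heterozygotes. Where a genotype kept 1 array, that array was assumed to vary like the other genotypes. Deviations of same-numbered pools from their genotype means did not go together (correlations -0.29 to -0.01). With 2 pools each in wild type and knockout, the deviations of a genotype mirror each other. These correlations are therefore not independent and cannot decide whether the replicate block is the better design. Over all genes, 267 were called against wild type, but 161 with no filter and 74 with the block; 485 were called against heterozygotes, but 306 with no filter, 287 without the trend and 84 with the block. Against wild type the Notch list had 4 calls, but 2 with no filter, without the trend or with averaged probe sets, and 0 with the block; the progenitor list had 7, but 3 with no filter or without the trend and 2 with the block; the proneural list had 1, but 0 in these 3 settings. Directions turned only in differences that had not passed. With 1 array left out, Stmn2 ran from -0.38 to 0.66 against wild type and from -0.053 to 0.51 against heterozygotes. The heterozygous minus wild-type differences ran from -0.69 to 0.74 for Elavl3, -0.33 to 0.35 for Elavl4, -0.74 to 0.39 for Nefl, -0.068 to 0.23 for Hes6, -0.21 to 0.69 for Neurod1, -0.20 to 0.22 for Fez1, -0.85 to 0.43 for Tubb3 and -0.63 to 0.41 for Stmn2. That of Elavl4 was also -0.048 with the replicate block and -0.052 with averaged probe sets, and that of Fez1 -0.0070 with quantile normalization. Fez1 passed in all 16 alternatives run against each genotype, but only narrowly in the weakest one against wild type. The causes of these changes were not tested, beyond the fewer genes tested under the stricter filter and the fewer arrays of the left-out fits.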
